A study of Mus musculus with 4 samples.

Results

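Prdm16 was 1 of 32289 genes in a single-cell RNA dataset of antigen-presenting cells from the mesenteric lymph nodes of young mice, and it was followed here by its own name across every cell type, sorted fraction and mouse. The 12 mice were 15 days old, untreated, and carried the Gm38411-iCre-hCD2 allele together with the R26 tdTomato allele. From each mouse, cells that were CD3-, B220-, CD11c+, MHC-II+ and tdTomato+ were sorted into an hCD2+ and an hCD2- fraction. Each mouse was marked by its own antibody hashtag, and the cells of a fraction were pooled into 1 library, so fraction and library preparation cannot be told apart. In this design iCre recombination leaves a lasting tdTomato mark, while hCD2 is made together with iCre. No mouse without the alleles and no treated group was part of the design, so all values describe carriers. Prdm16 was found in 2013 of 7099 cells kept from the hCD2+ fraction (28.4% with at least 1 UMI, a transcript counted once by its molecular barcode) and in 283 of 4762 cells of the hCD2- fraction (5.94%).

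PRDM16 is a nuclear protein with a PR domain and zinc fingers that acts in transcription, both with activators and with corepressors. It is best known for its part in the identity of brown fat cells and in the maintenance of haematopoietic stem cells. RORγt-expressing dendritic cells are a small population of antigen-presenting cells of lymph nodes, and some of them express Aire, the regulator of self-antigen display first known from the thymus.

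Prdm16 (ENSMUSG00000039410, protein coding) lies on the minus strand of mouse chromosome 4, at chr4:154316125-154636873 of GRCm38, and spans 321 kb with 32 annotated transcripts. An antisense-class gene, Prdm16os (ENSMUSG00000085069), lies beside it on the plus strand without overlap, at chr4:154637576-154644724 in GENCODE, and the RefSeq starts of the genes are 707 bases apart. Prdm16os was chosen after its values were seen, because its counts followed those of Prdm16. The 250 bases before each start are given below from RefSeq (GRCm38.p6), since the genes start close together on opposite strands. The Prdm16 window is chr4:154636874-154637123 (minus strand) and the Prdm16os window is chr4:154637330-154637579 (plus strand). Capitals mark GGGCGG or its reverse complement CCGCCC, the core of the GC box, and adjoining matches run together.
Prdm16: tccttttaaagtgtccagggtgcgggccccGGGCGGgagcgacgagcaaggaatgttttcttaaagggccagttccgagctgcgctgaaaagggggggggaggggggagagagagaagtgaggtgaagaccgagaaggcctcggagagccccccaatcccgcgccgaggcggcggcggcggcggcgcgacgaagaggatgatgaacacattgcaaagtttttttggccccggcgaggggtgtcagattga
Prdm16os: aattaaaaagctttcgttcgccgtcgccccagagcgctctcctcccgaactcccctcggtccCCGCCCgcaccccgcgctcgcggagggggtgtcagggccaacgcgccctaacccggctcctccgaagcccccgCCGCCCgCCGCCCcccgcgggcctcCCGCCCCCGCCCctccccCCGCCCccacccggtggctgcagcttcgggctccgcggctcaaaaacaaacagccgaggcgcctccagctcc
GC made up 62.4% of the Prdm16 window and 74.8% of the Prdm16os window, against a median of 52.4% over 32851 promoters. GGGCGG was found on either strand 1 time before Prdm16 and 6 times before Prdm16os, and 32.7% of all promoter windows of this length held it at least once. AGGTCA, the core letters of nuclear receptor sites, was searched on both strands with its complement TGACCT. It had 0 matches in either window and was present in 14% of all promoters, which says only that these letters are not in these windows.

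Of the hCD2+ library 7099 cells were kept and of the hCD2- library 4762, with a median of 17486 and 23846 UMIs per cell. A mouse contributed between 365 and 897 cells to the first and between 234 and 592 to the second. Cells were grouped into clusters from the most variable genes, with Prdm16, Gm38411 and the reporters left out, and a cluster was named only from its markers. The sort was for dendritic cells, yet the hCD2+ fraction held 2986 ILC3 or LTi-like cells, and the hCD2- fraction held 938 T cell-like cells in spite of the CD3 gate. RORgt DC-like cells were 1253 in the hCD2+ fraction and 178 in the hCD2- fraction. They fell into cluster 5, led by Col17a1, Nccrp1 and Pigr, cluster 4, led by Ldb2, Asprv1 and Aire, and cluster 7, led by Nrg1, Syt1 and Ncam1. Of the 10 markers of this class, cluster 7 had 7 raised, cluster 4 had 6 and cluster 5 had 4. Cluster 5 also had 5 raised cDC2 markers and cluster 4 had 6 raised CCR7 dendritic cell markers, so the class name rests on their leading genes and is not firm. Cluster 12, led by Selenom, Itgb8 and Macc1, carried 10 of 12 CCR7 dendritic cell markers and Epcam and was left without a class name. Free RNA matters for all low values. In droplets of 10 to 100 UMIs, Prdm16 stood at 321 CPM (UMIs scaled to the same total in every group) in the hCD2+ library and 5.16 CPM in the hCD2- library. The libraries shared 9 barcodes among the kept cells, and 0 of these carried the same hashtag.

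Prdm16 was highest by far in RORgt DC-like cells of the hCD2+ fraction, and it differed several-fold among their clusters. In cluster 5 its summed level per mouse was 2970 CPM at the lowest, 3150 at the median and 4080 at the highest (3330 ± 355, SD, n = 12 mice). In cluster 4 the same values were 1490, 1730 and 2070 CPM (1760 ± 165, SD, n = 12). Every mouse was higher in cluster 5 than the highest mouse in cluster 4. Cluster 12 ran from 805 to 1610 CPM with a median of 1070 (1120 ± 258, SD, n = 8), so its upper end overlapped the lower end of cluster 4. Cluster 7 lay far below all of them, from 19.1 to 316 CPM with a median of 129 (148 ± 79.5, SD, n = 12). Mice were alike in clusters 5 and 4, with a coefficient of variation of 10.7% and 9.34%, and varied widely in cluster 7, at 53.8%. As a description, since clusters were formed from other genes of the same cells, the fitted log2 difference was 0.70 ± 0.06 (SE) between clusters 5 and 4, 3.76 ± 0.20 between clusters 4 and 7, and 1.29 ± 0.10 between clusters 5 and 12.

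Other classes of the hCD2+ fraction had at most a small part of this level. Monocyte or macrophage-like cells had 52.3 ± 70.7 CPM (SD, n = 6 mice, from 0 to 149), cDC2-like cells 35.8 ± 33.7 (n = 7) and CCR7 migratory DC-like cells 21.4 ± 21.6 (n = 12). ILC3 or LTi-like cells had 11.5 ± 3.45 CPM (SD, n = 12), T cell-like cells 5.0 ± 2.64 (n = 10) and cDC1-like cells 3.21 ± 2.47 (n = 6). Each of these ranges overlapped that of its neighbour in the order, cluster 7 and the monocyte or macrophage-like cells included. A large part of the signal in 4 of these classes came from a few cells. The 3 cells richest in Prdm16 held 93.0% of its UMIs in monocyte or macrophage-like cells, 52.9% in CCR7 migratory DC-like, 52.2% in cDC1-like and 44.7% in cDC2-like cells. Without them the pooled level was 5.18, 12.2, 2.15 and 21.2 CPM. The fitted log2 excess of the RORgt DC-like class was 6.13 ± 0.27 (SE) over cDC2-like, 6.40 ± 0.29 over CCR7 migratory DC-like, 7.91 ± 0.12 over ILC3 or LTi-like and 9.58 ± 0.18 over cDC1-like cells, given without a test for the same reason as above. DESeq2 put the excess over CCR7 migratory DC-like cells at 4.40 ± 0.71. Plasmacytoid dendritic cell-like (pDC-like) cells of the hCD2- fraction had 0 Prdm16 UMIs in 103 cells.

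**Figure D1:**
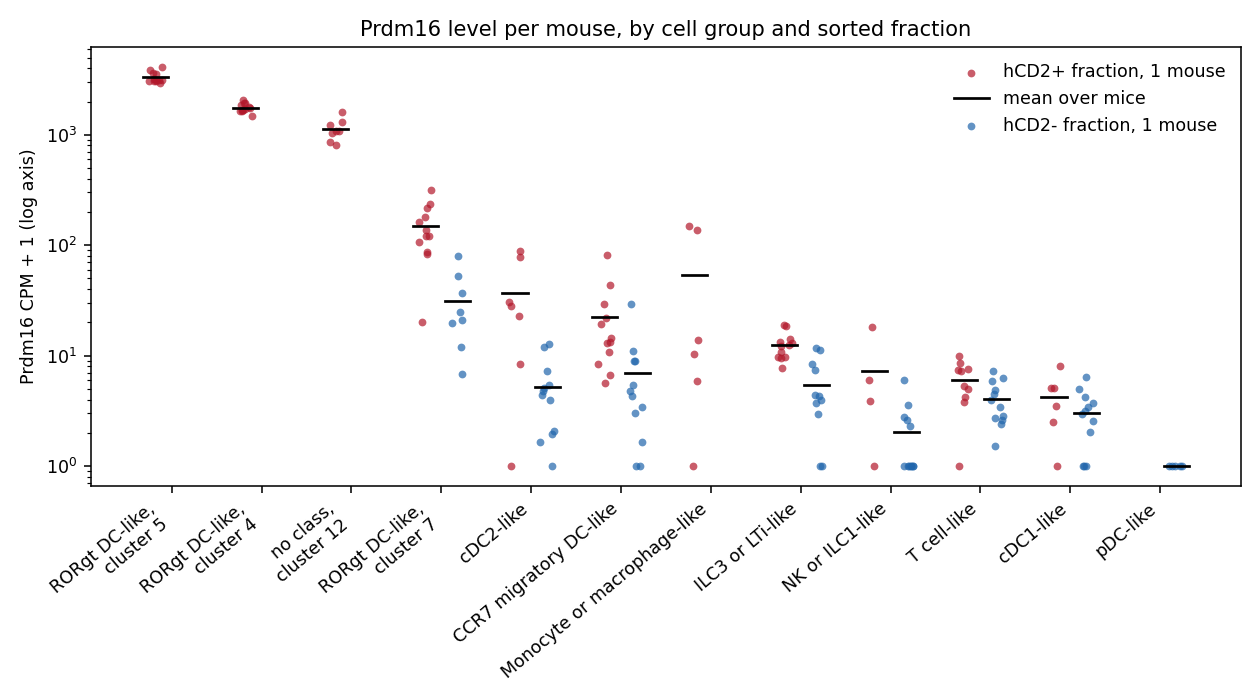
Prdm16 level in CPM (vertical axis, log scale after adding 1) in each cell class and in clusters 5, 4, 12 and 7. Each point is 1 mouse with at least 10 cells, coloured by fraction, and bars are means over mice. The hCD2+ mice of clusters 5 and 4 stand above 1490 CPM and those of cDC1-like and T cell-like cells near the bottom.

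Most of the Prdm16 transcripts came from few cells. Cluster 5 was 9.25% of hCD2+ cells and held 72.6% of that fraction's 100040 Prdm16 UMIs. Cluster 4 held 14.2% with 4.55% of the cells, cluster 12 held 9.08% with 3.11%, and cluster 7 held 0.953% with 3.85%. The hCD2- fraction had 1142 Prdm16 UMIs in all. There 14 cells of cluster 4 held 29.0% of them, 8 cells of cluster 12 held 15.8% and 2 cells of cluster 5 held 4.29%. These few hCD2- cells had pooled levels of 1150 CPM (exact Poisson 95% interval 1030 to 1280, counting error only), 906 CPM and 1020 CPM. No mouse had 10 such cells, so they were not compared with their hCD2+ counterparts.

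To compare cells at equal depth, each cell with at least 5000 UMIs was thinned to 5000. At that depth 99.5% of 631 hCD2+ cells of cluster 5 had Prdm16, with a median of 16 UMIs (interquartile range 11 to 21). In cluster 4 it was 96.7% of 301 cells with a median of 7 (4 to 12), and in cluster 12 it was 93.9% of 213 cells with a median of 4 (2 to 8). Nearly every cell of these 3 clusters thus held Prdm16 transcripts, at amounts that overlapped between clusters. Cluster 7 was mixed, with Prdm16 in 29.0% of 238 cells (Wilson 95% interval 23.6 to 35.1). In T cell-like cells, used as a class that should lack the gene, the share was 2.67% of 262 cells (1.30 to 5.41), at a median depth of 15251 UMIs before thinning. The share was 4.47% of 2954 ILC3 or LTi-like cells (3.78 to 5.27, median depth 16693.5), 5.80% of 500 CCR7 migratory DC-like cells (4.07 to 8.21, median depth 31805) and 7.34% of 109 cDC2-like cells (3.77 to 13.8, median depth 25896). The intervals of all 3 of these classes overlapped that of the T cell-like cells. pDC-like cells of the hCD2- fraction had it in 0 of 98 cells, which allows a share of cells with a UMI of up to 3.06% (3 counts, counting error only).

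**Figure D2:**
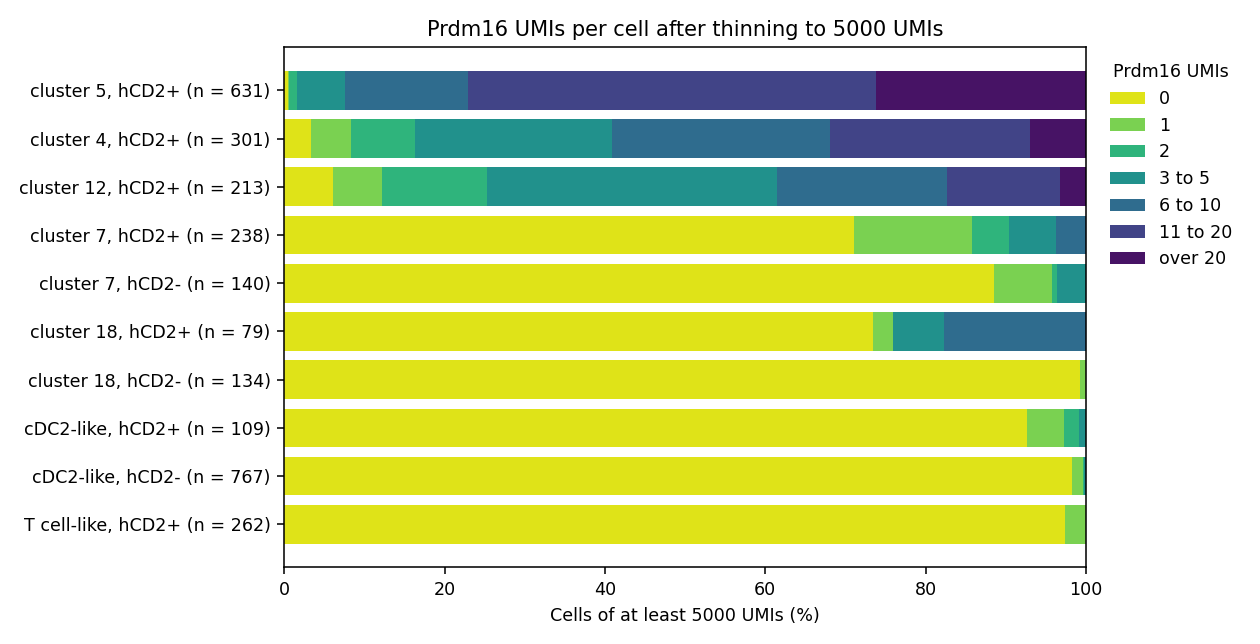
Share of cells in percent (horizontal axis) by Prdm16 UMIs per cell after thinning to 5000 UMIs (colours of the stacked bars). Each bar is a group of cells of the hCD2+ or hCD2- fraction (vertical axis). Values named here are of hCD2+ cells. Cluster 5 centres on 16 UMIs, cluster 4 on 7 and cluster 12 on 4, while most cells of cluster 7 are at 0.

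Of hCD2+ cells with at least 3 thinned Prdm16 UMIs, 1094 in all, 56.8% lay in cluster 5, 23.0% in cluster 4, 14.5% in cluster 12, 2.10% in cluster 7 and 1.74% in cluster 18. Cluster 18 was led by cell cycle genes and had no class name. Its Prdm16 was split between cells: 19 of its 79 hCD2+ cells had at least 3 UMIs, and 94.7% of these also had Col17a1, which encodes a collagen of epithelial anchoring structures. Among the 58 cells of cluster 18 without Prdm16, 3.45% had Col17a1. The other genes of these cells differed by cluster. Pigr, the receptor that carries polymeric antibodies across epithelia, was found in 40.1% of the Prdm16-rich cells of cluster 5. Aire was found in 81.0% of those of cluster 4 and 7.25% of those of cluster 5. Itgb8, an integrin chain that activates TGF-beta, was found in 73.6% of those of cluster 12. Ccr7, the lymph node homing receptor, was found in 99.2% of those of cluster 4, 99.4% of those of cluster 12 and 40.7% of those of cluster 5. In cells of the same clusters with 1 or 2 Prdm16 UMIs, Aire was found in 87.2% of 39 in cluster 4 and Itgb8 in 78.0% of 41 in cluster 12. Ccr7 was found in 97.4% and 100% of these, and Pigr in 14.3% of only 7 cells in cluster 5. In clusters 4 and 12 these genes were thus about as common in cells with less Prdm16. Pigr, Aire and Itgb8 are leading genes of clusters 5, 4 and 12, which were formed from genes of the same cells. Their differences thus describe the clusters and are no separate result on Prdm16-rich cells. In the monocyte or macrophage-like class, the 3 Prdm16-positive cells at this depth had a median of 47243 UMIs, against 20607 in the 116 negative cells. Of these 3 cells, 2 also had Col17a1, 2 Pigr and 3 Lyz2, a lysozyme of macrophages, while 0 had Sirpa, a cDC2 marker here. Among the 116 negative cells, 3.45% had Col17a1, 0% Pigr, 93.1% Lyz2 and 88.8% Sirpa. Droplets holding 2 cells of the same mouse carry a single hashtag and were not removed, and their part in such cells was not tested.

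Prdm16os followed Prdm16 at a low level. It had 376 UMIs in the hCD2+ fraction, of which 276 were in cluster 5, 58 in cluster 4 and 16 in cluster 12, and 0 UMIs in the hCD2- fraction, which allows up to 0.0243 CPM. Per mouse it reached 12.6 ± 2.67 CPM in cluster 5 (SD, n = 12), 7.15 ± 3.22 in cluster 4 (n = 12), 2.39 ± 1.97 in cluster 12 (n = 8) and 0.468 ± 0.71 in cluster 7 (n = 12). Among these clusters the order was thus that of their Prdm16 levels, but other hCD2+ clusters did not keep to it. Cluster 18 had 14 Prdm16os UMIs in 4110591 UMIs and cluster 12 had 16 in 7829437. Their pooled Prdm16 levels were 365 and 1160 CPM. Cluster 16, of low UMI count, had 5 in 291746 UMIs at 497 CPM of Prdm16. Within clusters 4, 5 and 12, Prdm16os was present in 3.11% of 225 cells with 0 to 20 Prdm16 UMIs, in 34.1% of 402 cells with 101 to 200 and in 31.4% of 35 cells with over 200. Depth moved with this, as median UMIs per cell were 19645, 36647 and 41137 in these groups, and its part was not tested.

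Between fractions, Prdm16 was higher in the hCD2+ cells wherever the test called a difference. Over all cells, mice ran from 452 to 1160 CPM with a median of 640 in the hCD2+ fraction, and from 3.15 to 20.7 with a median of 9.28 in the hCD2- fraction. The groups did not overlap, and hCD2+ was higher in 12 of 12 mice, with a log2 fold change of 6.18 ± 0.23 (SE, edgeR quasi-likelihood test, adjusted p = 1.94e-17). In that comparison 67.8% of 13236 genes tested were called and 33.9% were called higher, so a call in itself is common there. Within RORgt DC-like cells the hCD2+ values were 2060, 2330 and 2950 CPM (lowest, median and highest, n = 12) and the hCD2- values 5.78, 165 and 277 (n = 9). These did not overlap either, and the log2 fold change was 4.45 ± 0.35 (SE, edgeR adjusted p = 5.91e-11), with 49.2% of 10293 genes called and 25.6% called higher. Different clusters held the class on each side, since cluster 5 made up 657 of the 1253 hCD2+ cells and cluster 7 made up 162 of the 178 hCD2- cells.

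Cluster 7 allowed the comparison within a single cluster of RORgt DC-like cells. Prdm16 ran from 19.1 to 316 CPM with a median of 129 in hCD2+ cells (n = 12 mice) and from 5.78 to 78.2 with a median of 21.7 in hCD2- cells (n = 8). The groups overlapped, but hCD2+ was higher in 8 of 8 mice with both, by a log2 fold change of 2.40 ± 0.39 (SE, edgeR adjusted p = 0.000557). Here 1.91% of 6561 genes were called and 1.13% were called higher. The share of cells with Prdm16 at 5000 UMIs was 29.0% against 11.4% of 140 hCD2- cells (7.16 to 17.8). Col17a1 moved with it in the same cluster, from a median of 161 CPM (78.6 to 311) in hCD2+ to 11.8 (1.93 to 34.2) in hCD2- cells. Its groups did not overlap, and its log2 fold change was 3.57 ± 0.38 (SE, edgeR adjusted p = 6.9e-07). Free RNA held 225 CPM of Col17a1 in the hCD2+ library and 2.54 in the hCD2- library, beside pooled levels of 164 and 17.6 in cluster 7. The part of free RNA in the differences of Prdm16 and Col17a1 in this cluster was not tested. Trp63, which encodes the p63 factor of stratified epithelia, was also higher in hCD2+ cells by 0.91 ± 0.20 (SE, adjusted p = 0.0141, 7 of 8 mice). Aire (0.49 ± 0.19, adjusted p = 0.229) did not pass the edgeR test.

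In other classes the levels were low on both sides. cDC2-like cells had 0 CPM at the lowest, 26.9 at the median and 87.7 at the highest mouse in the hCD2+ fraction (n = 7) and 0, 3.57 and 11.8 in the hCD2- fraction (n = 12). The groups overlapped, 6 of 7 mice were higher in hCD2+, and the log2 fold change was 3.15 ± 0.54 (SE, edgeR adjusted p = 0.00105, 5.42% of 8601 genes called and 2.95% called higher). CCR7 migratory DC-like cells had 4.69, 12.9 and 81.1 CPM in the hCD2+ fraction (n = 12) and 0, 3.57 and 28.1 in the hCD2- fraction (n = 12). With 11 of 12 mice higher, the log2 fold change was 1.74 ± 0.48 (SE, edgeR adjusted p = 0.0112, 17.9% of 8063 genes called and 9.54% called higher). This call rests on mouse 6: without it the value was 1.21 with an edgeR adjusted p of 0.0864. Mouse 6 held 230 of the 410 Prdm16 UMIs of these hCD2+ cells. Of these, 163 were in cluster 9, where only 1 cell had at least 3 UMIs after thinning. The share of CCR7 migratory DC-like cells with Prdm16 at 5000 UMIs was also higher in the hCD2+ fraction, at 5.92% ± 2.75 against 1.89% ± 1.55 (SD, n = 12 and 12 mice, difference 4.03 points, two-sided permutation test, adjusted p = 0.00072 over 3 classes). For cells with at least 2 UMIs the difference was 1.13 points and the call was lost (permutation, adjusted p = 0.143).

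Innate lymphocytes of the ILC3 or LTi-like class, which lack antigen receptors, had 6.7, 11.3 and 17.8 CPM (lowest, median and highest) in the hCD2+ fraction (n = 12) and 0, 3.32 and 10.6 in the hCD2- fraction (n = 11). The ranges overlapped, and the log2 difference of 1.17 ± 0.37 (SE) did not pass the edgeR test (adjusted p = 0.0689, 4.18% of 9847 genes called and 1.79% called higher). Their share of cells with Prdm16 was 4.71% ± 1.44 against 2.57% ± 3.16 (SD, n = 12 and 4 mice, exact permutation test, adjusted p = 0.0692). T cell-like cells, with 5.0 ± 2.64 against 3.02 ± 1.76 CPM, were below the low-count filter, but their share was 3.70% ± 2.41 against 1.43% ± 1.30 (SD, n = 5 and 12 mice, exact permutation test, adjusted p = 0.0495). This difference of 2.27 points did not pass with the mice paired (adjusted p = 0.188, exact permutation) and turned to -0.185 points for cells with at least 2 UMIs and -0.46 at 2000 UMIs. Free RNA of the hCD2+ library held 321 CPM of Prdm16 against 5.16 in the other. The part of free RNA in the low-class differences was not tested.

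**Figure D3:**
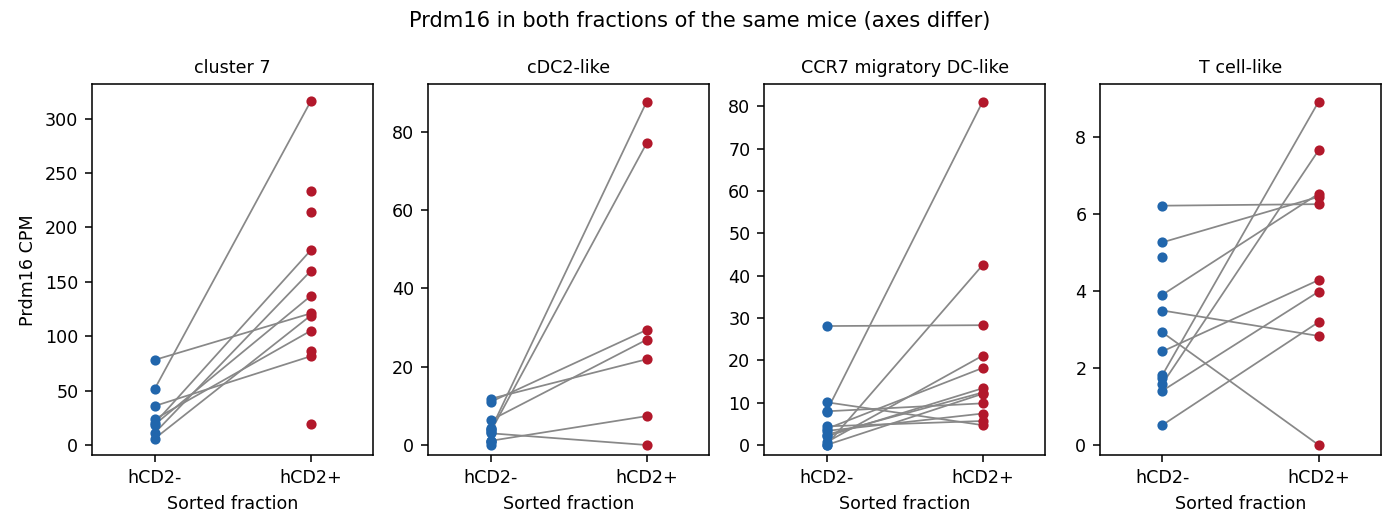
Prdm16 in CPM (vertical axis, a different scale in each panel) in the hCD2- and hCD2+ cells of the same mouse, joined by a line, for cluster 7, cDC2-like, CCR7 migratory DC-like and T cell-like cells. In cluster 7 the line rises in 8 of 8 mice, and in CCR7 migratory DC-like cells in 11 of 12, with mouse 6 at 81.1 CPM.

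Prdm16 followed the reporter locus among clusters 5, 4, 12 and 7, of which cluster 12 has no class name, but not into ILC3 or LTi-like cells. Gm38411, where iCre and hCD2 were placed, had 109 ± 12.3 CPM in hCD2+ cells of cluster 5, 31.8 ± 9.07 in cluster 4, 21.3 ± 5.77 in cluster 12 and 10.8 ± 6.35 in cluster 7 (SD). This is the order of Prdm16 among the clusters, but ILC3 or LTi-like cells had 55.4 ± 5.51 CPM of Gm38411 with little Prdm16. The hCD2 transcript gave a like picture, with 98.1 ± 10.9 CPM in cluster 5, 20.4 ± 6.09 in cluster 4 and 54.7 ± 6.97 in ILC3 or LTi-like cells. tdTomato was similar in clusters 5 and 4, at 274 ± 26.6 and 248 ± 47.1 CPM, and highest of these groups in ILC3 or LTi-like cells, at 480 ± 37.1. Over 16 points, each a class in a fraction, the Pearson correlation with Prdm16 was 0.60 for Gm38411, 0.58 for hCD2 and -0.24 for tdTomato, as a description over points that share 2 libraries.

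Among 6526 genes that reached 50 CPM in some class, those most like Prdm16 over these 16 points included Fabp1 (Pearson r = 0.93), Clic3, Thrb and Tdh (0.92 each), and Grin2c, Scube1, Epha4, Plekhs1 and Col17a1 (0.89 each). These genes were all highest in the RORgt DC-like cells of the hCD2+ fraction. Fabp1, the liver fatty acid binding protein, had 260 CPM there and 11.2 in the next class, and Col17a1 had 960 against 34.6. Thrb, a thyroid hormone receptor, was unlike these because RORgt DC-like cells of the hCD2- fraction had nearly as much, 257 against 287 CPM. Pigr (0.80), Aire (0.78) and Trp63 (0.75) followed Prdm16 less closely. The class with most cells of cluster 5 sets much of each of these values. Col17a1, Pigr, Aire and Trp63 are also among the markers that named the RORgt DC-like class, so their high levels there were in part built in.

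The other genes of the PRDM family had levels and orders of their own, given here without a test. Prdm2, a histone methyltransferase gene, was present throughout, at 157 ± 8.16 CPM over all hCD2+ cells and 150 ± 9.23 over all hCD2- cells (SD, n = 12 each), and at 276 ± 39.2 in cluster 4 and 163 ± 17.2 in cluster 5. Prdm10 had 45.8 ± 3.42 and 45.3 ± 4.01 CPM over all cells of the fractions. Prdm11 had 26.9 ± 4.18 and 18.3 ± 2.30 CPM, with 37.8 ± 9.62 in cluster 5 and 6.27 ± 3.96 in cluster 12. Prdm1, which encodes the repressor Blimp-1, had its higher levels where Prdm16 was low. It had 22.1 ± 11.7 CPM in hCD2+ and 41.5 ± 8.06 in hCD2- CCR7 migratory DC-like cells, and 7.41 CPM in cluster 12, 0.665 in cluster 4 and 0.116 in cluster 5. Prdm8 was seen in cluster 7, at 7.97 ± 6.45 CPM. Mecom, the closest relative of Prdm16, had 14 UMIs in the hCD2+ fraction and 65 in the hCD2- fraction, and Prdm12 had 0 in both. Of the brown fat genes, Ucp1, the uncoupling protein, had 0.434 ± 0.277 CPM over all hCD2+ cells and 0.417 ± 1.08 in cluster 5. Cidea had 0.0634 ± 0.22 CPM in cluster 5 and Ebf2 0.138 ± 0.338. Ppargc1a, a coactivator of mitochondrial genes, had 42.9 ± 24.1 CPM in cluster 5 and 27.6 ± 17.5 in cluster 4.

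Within cluster 5, genes were compared between cells with more and less Prdm16. The hCD2+ cells of each mouse were put into 3 equal groups by thinned Prdm16 UMIs, and the highest group (236 cells, median 23 UMIs) was set against the lowest (223 cells, median 9) over 12 mice. Cluster was held fixed and depth was close, at a median of 35026.5 and 34193 UMIs before thinning. Of 1942 genes tested, 132 rose and 155 fell with Prdm16, 14.8% in all at an edgeR adjusted p under 0.05. Hdac9, a class IIa histone deacetylase, ran from 1750 to 2990 CPM with a median of 2280 in the highest group and from 920 to 1780 with a median of 1370 in the lowest. The ranges touched only at their ends, and Hdac9 was higher in 12 of 12 mice, by 0.73 ± 0.10 on the log2 scale (SE, edgeR adjusted p = 1.69e-06). Dnase1l3, a secreted DNase of dendritic cells and macrophages, rose from a median of 480 to 862 CPM in 11 of 12 mice (0.87 ± 0.16, adjusted p = 0.000307), and Stab2, a scavenger receptor, from 142 to 356 (1.22 ± 0.23, adjusted p = 0.0004).

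Tmsb10, an actin-binding thymosin, had 336, 441 and 733 CPM in the highest group and 700, 957 and 1730 in the lowest, and was lower in 12 of 12 mice (-1.06 ± 0.13 on the log2 scale, SE, edgeR adjusted p = 1.20e-06). Ptma, a nuclear prothymosin, ran from 768 to 1400 CPM against 1460 to 2620, without overlap (-0.71 ± 0.09, adjusted p = 1.69e-06). Hmgb2, a chromatin protein of growing cells, fell from a median of 413 to 133 CPM (-1.37 ± 0.20, adjusted p = 1.29e-05). Arhgap15, a Rac regulator, fell by 1.68 ± 0.23 (adjusted p = 3.97e-06) and Ndufa1, a subunit of respiratory complex I, by 1.42 ± 0.22 (adjusted p = 2.33e-05). Malat1, a nuclear RNA, was higher in the highest group in 11 of 12 mice, with a median of 22300 against 17600 CPM (0.30 ± 0.10, adjusted p = 0.0283). The part of a shift between nuclear and other RNA in these differences was not tested. hCD2 (-0.03 ± 0.20, adjusted p = 0.946), Col17a1 (0.22 ± 0.09, adjusted p = 0.115) and Pigr (0.60 ± 0.22, adjusted p = 0.0608) did not pass the edgeR test within cluster 5. With each mouse as a block, Pigr passed at an adjusted p of 0.018.

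Of the gene lists inside cluster 5, few members were tested, and over all tested genes 6.8% rose, 7.98% fell and the median was 0.01 on the log2 scale. Of 6 tested genes of the RORgt DC programme, 2 rose (Dnase1l3 and Cldn7, a tight junction claudin) and 0 fell, with a median of 0.53. Of 10 MHC class II genes 0 were called (median 0.01), and of 8 maturation and migration genes 0 were called (median 0.03). Among 4 tested genes for partners of PRDM16, Skil, a SMAD corepressor, rose by 0.42 ± 0.14 (SE, edgeR adjusted p = 0.0383), in 11 of 12 mice. Skil was also the only call among 4 tested TGF-beta signalling genes (median -0.31). Of 3 tested epithelial junction genes only Cldn7 was called (median 0.47). Of 20 brown adipocyte genes 0 were abundant enough to be tested.

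Cluster 4 gave a different set of leading genes. Its hCD2+ cells were split in the same way in the 5 mice with enough cells (60 and 63 cells tested, with median depths of 28609.5 and 25034 UMIs in these groups over all mice), and 11 of 1292 genes rose (0.851%) and 15 fell (1.16%), 2.01% in all. Col17a1 had 491, 667 and 960 CPM in the highest group and 246, 280 and 323 in the lowest. The groups did not overlap, with a log2 fold change of 1.20 ± 0.25 (SE, edgeR adjusted p = 0.00561) and 5 of 5 mice higher. Sorcs2, a sorting receptor, rose from a median of 100 to 473 CPM (1.89 ± 0.37, adjusted p = 0.00378). Both calls were lost without mouse 3, at 1.03 ± 0.27 for Col17a1 (adjusted p = 0.0805) and 1.54 ± 0.39 for Sorcs2 (adjusted p = 0.0728), and no gene was called higher there. Dnajc6, the clathrin uncoating factor auxilin, ran from 40 to 213 CPM against 420 to 800 without overlap (-2.11 ± 0.30, adjusted p = 7.19e-05). Itgav, the chain that pairs with Itgb8 to activate TGF-beta, ran from 20 to 186 CPM against 231 to 600, again without overlap (-1.89 ± 0.35, adjusted p = 0.00335). Aire was lower in 4 of 5 mice but did not pass (-0.39 ± 0.21, adjusted p = 0.424). Of 8 MHC class II genes and 11 maturation genes 0 were called, with medians of 0.01 and 0.06 beside 0.02 over all genes. The calls of Dnajc6 and Itgav held with each of the 5 mice left out. The count of genes rests on single mice, since it fell from 26 to 8 without mouse 3, to 11 without mouse 8 and to 12 without mouse 11.

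In cluster 7, where most hCD2+ cells had no Prdm16, 65 cells with it were compared with 169 cells without it (10 and 12 mice with at least 5 cells, median depth 28230 and 25204 UMIs over all mice). Of 775 genes tested 28 rose (3.61%) and 15 fell (1.94%), 5.55% in all. Col17a1 again led, at 280, 433 and 829 CPM (lowest, median and highest mouse) in cells with Prdm16 and 0, 42.2 and 175 in cells without. The groups did not overlap, and the log2 fold change was 2.96 ± 0.32 (SE, edgeR adjusted p = 5.71e-08, 10 of 10 mice). At the level of cells, Col17a1 was found in 95.7% of 23 cells with at least 3 Prdm16 UMIs, in 60.9% of 46 cells with 1 or 2 and in 13.6% of 169 cells with 0. For each 100 Prdm16 UMIs there were 115 Col17a1 UMIs in cluster 7, 41.9 in cluster 5 and 70.1 in free RNA of the hCD2+ library, and 58.5 in cluster 7 and 49.2 in free RNA of the hCD2- library. The pooled Prdm16 level of cluster 7 was 44.8% of the free RNA level in the hCD2+ library, and the part of free RNA in it was not tested. Fscn1, the actin bundler of mature dendritic cells, fell from a median of 722 to 303 CPM (-1.19 ± 0.19, adjusted p = 6.81e-05), and Nrg1, a growth factor that leads this cluster, from 6520 to 3310 (-1.15 ± 0.24, adjusted p = 0.00294). Of 7 MHC class II genes 0 were called, and of 11 maturation genes only Fscn1 fell.

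Cluster 12 showed little. Between its highest and lowest groups (64 and 69 cells tested in 7 mice, with median depths of 33242 and 36931 UMIs over all mice) 3 of 750 genes were called, 0.4% in all. Epcam, an epithelial adhesion molecule, ran from 125 to 333 CPM in the highest group and from 400 to 743 in the lowest, without overlap (-1.0 ± 0.24, SE, edgeR adjusted p = 0.0488). Ccl5, named after its value was seen, also fell. In ILC3 or LTi-like cells, 100 cells with Prdm16 (8 mice) were compared with 2822 without it (12 mice), and 2 of 7976 genes rose, 0.0251% in all. These were Cd80, a costimulatory ligand of dendritic cells (median 65.7 against 18.5 CPM, 1.82 ± 0.32, adjusted p = 0.0125, 8 of 8 mice), and Ikzf2, named after its value was seen. Gm38411 did not pass in these cells, at 0.03 ± 0.27 (adjusted p = 0.987).

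Split over the whole RORgt DC-like class, cells with and without Prdm16 were largely different clusters. Of 182 cells without it 92.9% were in cluster 7, and of 988 cells with it 63.6% were in cluster 5 and 29.5% in cluster 4. The 1059 genes that rose (22.8% of 4649 tested) and 1038 that fell (22.3%), 45.1% in all, therefore describe clusters as much as Prdm16. Pigr and Cldn7 were at 0 in every mouse in cells without Prdm16, while Nrg1 had medians of 253 CPM with and 6350 CPM without it. Aire was level, with medians of 210 and 230 CPM (-0.06 ± 0.22, SE, edgeR adjusted p = 0.855). Of 13 tested genes of the RORgt DC programme, 7 rose and 5 fell, Kif21a, Slc7a10, Nrn1 and Trp63 among them. Of these 13 genes, 11 were among the variable genes that formed the clusters, and the list holds the markers that named the class. Of 16 maturation genes, 4 rose, Ccr7 among them, and 6 fell, Cd80, Cd86 and Fscn1 among them. Of 10 MHC class II genes, 6 rose, H2-Aa and Cd74 among them, and 3 fell, H2-DMb2, H2-DMa and Ciita. Of 13 tested partners of PRDM16, Hdac1 rose and Hdac2, Tle3 and Kdm1a fell, and of 13 TGF-beta signalling genes Itgb8 rose and Tgfbr1, Smad4 and Smad1 fell. Of 3 brown adipocyte genes tested, Acsl1 rose and Gk fell, and Prdm2, the only PRDM family gene tested, fell. The medians were 1.86 for the RORgt DC programme, -0.13 for maturation, 0.32 for MHC class II and -0.22 for the partners, beside -0.02 over all genes.

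Correlations over single cells, taken within each mouse after thinning and averaged over mice, ranked genes on all cells rather than on the extremes, and are given as a description. In cluster 5 (12 mice, 631 cells) the highest included Hdac9, with a mean r of 0.41 ± 0.08 (SD over mice), and the lowest were Tmsb10 (-0.38 ± 0.14) and Ptma (-0.34 ± 0.11). From the 5th to the 95th percentile, all 5852 genes lay between -0.13 and 0.11. Col17a1 was highest in cluster 4 (0.41 ± 0.15, 8 mice, 230 cells) and in cluster 7 (0.70 ± 0.19, 6 mice, 156 cells), and reached 0.24 ± 0.09 in cluster 5. The lowest in cluster 4 was H2-M2, a class I-like gene of the MHC (-0.46 ± 0.18). In cluster 12 (6 mice, 154 cells) Nf1 and Wdfy4 reached 0.33 and Irf2bp2 -0.40. In ILC3 or LTi-like cells no named gene went beyond 0.09 (Plcl1), a range too narrow to rank genes by. All these cells share their library and its free RNA.

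**Figure D4:**
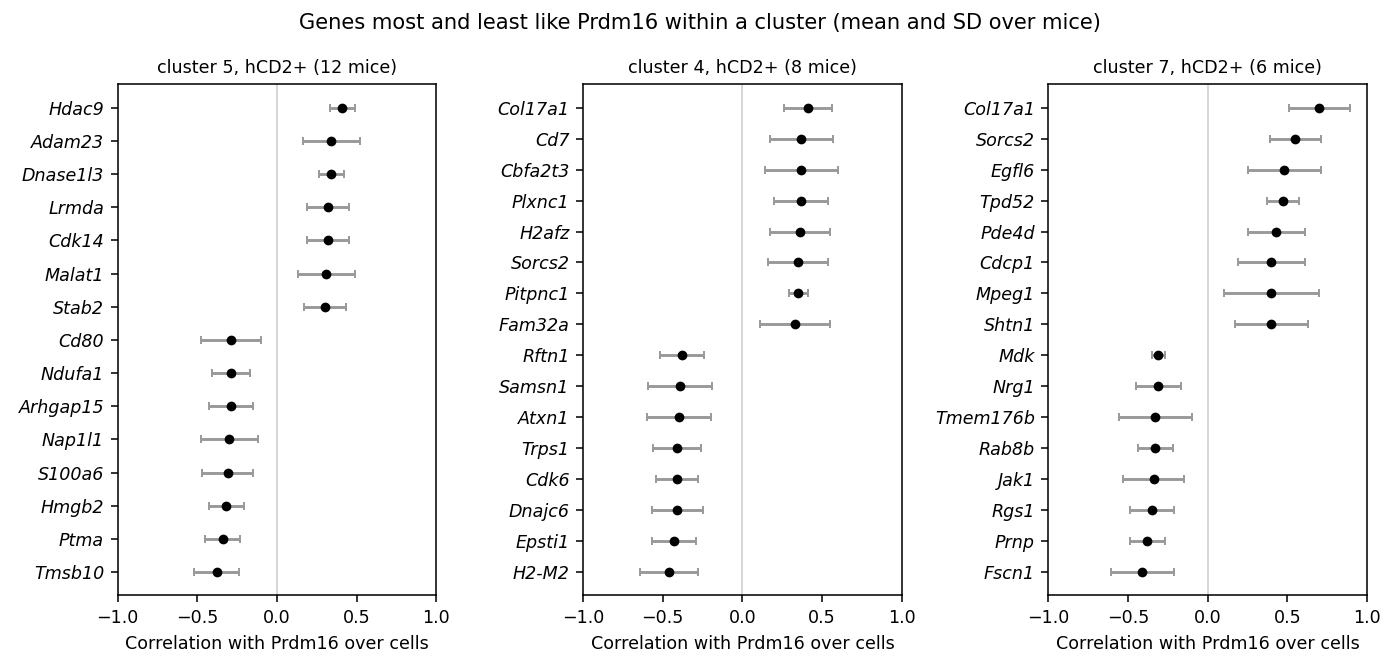
Mean correlation with Prdm16 over single hCD2+ cells (horizontal axis, Pearson r, from -1 to 1) for genes among the 8 highest and 8 lowest of clusters 5, 4 and 7. Points are means over mice and bars are SD. Col17a1 stands at 0.70 in cluster 7 and 0.41 in cluster 4, and Hdac9 at 0.41 in cluster 5.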

How the data were processed

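The authors deposited raw UMI counts per gene and barcode, together with the hashtag called for each cell. Cell Ranger 8.0.1 and mm10 are named in the submitters' processing notes, and further settings are not given in the sources used here. From these counts, cells were kept that carried a single hashtag, 500 or more genes and no more than 10% mitochondrial UMIs. Barcodes with several hashtags were left out, and no doublet caller was run. Clusters used 2000 variable genes, 30 components, 15 neighbours and resolution 1 (scanpy 1.11.5). Counts were summed per mouse, fraction and cell group of at least 10 cells (5 where stated) and tested with edgeR 4.0.16 (TMM, low-count filter, quasi-likelihood, Benjamini-Hochberg over all tested genes, adjusted p under 0.05). Comparisons within clusters used cells of at least 5000 UMIs thinned to 5000. The mouse was not a block in these fits. Alternatives were DESeq2 1.42.0, no low-count filter, other thinning depths, the mouse as a block and leaving out single mice. Mice are separate animals.

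A mouse summed to 7269488 to 17966298 UMIs in the hCD2+ fraction and 5914558 to 16238728 in the hCD2- fraction. Intervals cover counting error only.

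Both fractions of a mouse share an animal. Over 6284 genes, deviations from the fraction means correlated at 0.264 to 0.673 for equal hashtags (mean 0.473, 12 of 12 above 0.1) and at -0.0424 on average for unequal ones.

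Named genes were Prdm16, the 8 highest and 8 lowest correlations per cell group among genes in at least 10% of cells, the 10 most alike over classes, and members of the lists (PRDM family, PRDM16 partners, brown adipocyte programme, TGF-beta signalling, RORgt DC programme, maturation, MHC class II, epithelial junction). Prdm16 and the lists were chosen with earlier results of these data known. Some genes that the rule names are not reported here. On simulated counts, 98% of genes changed 2-fold were recovered for the fraction comparison in cluster 7. For the split of ILC3 or LTi-like cells by Prdm16 it was only 58%. Only well-covered genes were changed there, at a fixed spread, so recovery of scarce genes was not examined.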

Additional observations from a re-analysis of the deposited data

Results flagged for a closer look

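Prdm16 was high in a single mouse of cluster 9, a CCR7 migratory DC-like cluster. In the hCD2+ fraction mouse 6 had 162 CPM (163 UMIs in 28 cells), and the other mice of 10 lay between 0 and 21.2. The 3 cells richest in Prdm16 held 91.8% of this cluster's Prdm16 UMIs. In the hCD2- fraction of cluster 9, mouse 7 had 2.26 CPM from 1 UMI in 12 cells, while the other mice of 5 had 0. In all 20 groups of 4 to 10 mice were examined, and 2 had such a mouse. The nominal rate of this outlier rule, 1 in 20, is for normally spread values and does not hold for CPM with many 0 values. Where all other mice are at 0, a single UMI is always flagged, as in mouse 7. Some groups were also the same cells under a class and a cluster name, such as cDC2-like and cluster 13. The 2 flags were thus not set against a chance rate.

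Barcodes of the hCD2+ library that were not assigned to a single mouse, and entered no comparison, also held Prdm16: 504 CPM in 806 barcodes with several hashtags (Multiplet), 857 CPM in 295 with none (Blank) and 687 CPM in 285 without a call (Unassigned). The same classes of the hCD2- library had 5.73, 6.21 and 11.6 CPM.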

How the results depend on the processing

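Leaving out mice, and cluster 7 and 12 on their own, were alternatives chosen after seeing the data. Of 192 values of comparisons under alternatives, 165 kept their direction and side of the threshold, 7 lost the call, 6 gained it, 12 moved and 2 reversed, and of 224 correlation values 187 stayed within the spread between mice and 37 moved. Leaving out each mouse gave log2 folds between fractions of 4.27 to 4.71 in RORgt DC-like cells, 2.22 to 2.77 in cluster 7 and 2.70 to 3.41 in cDC2-like cells, all called, with no value for cDC2-like cells without mouse 7. For CCR7 migratory DC-like cells it gave 1.21 to 2.20, with the call lost without mouse 6, and for ILC3 or LTi-like cells 1.03 to 1.48, called without mouse 8 (adjusted p = 0.0461) or mouse 11 (0.0498). DESeq2 called the ILC3 or LTi-like difference, at 1.20 (adjusted p = 0.032). In shares of cells by permutation, counting only cells with at least 2 UMIs gave a difference of 1.13 points in CCR7 migratory DC-like (adjusted p = 0.143), 0.501 in ILC3 or LTi-like (0.0495) and -0.185 in T cell-like cells (1). Thinning to 2000 UMIs gave 2.1 points in ILC3 or LTi-like (0.0033) and -0.46 in T cell-like cells (0.356). Leaving out mice gave 1.33 to 3.54 points in ILC3 or LTi-like cells (called without mouse 8) and 1.45 to 3.2 in T cell-like cells, called only without mouse 5. With the mouse as a replicate block, the T cell-like share difference of 2.27 points had an adjusted p of 0.188.

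Counts of genes that differ with Prdm16 changed most. Without the low-count filter they were 14 in place of 2 in ILC3 or LTi-like cells, 3552 in place of 2097 in RORgt DC-like cells, 47 in place of 26 in cluster 4 and 144 in place of 43 in cluster 7. DESeq2 gave 40, 3262, 20 and 68. In cluster 7 the balance turned without the filter, to 40 higher and 104 lower, while DESeq2 gave 45 higher and 23 lower. The replicate block gave 4 in ILC3 or LTi-like cells, 38 in cluster 4 and 1 in place of 3 in cluster 12. In the edgeR fits that gave a blocked value, blocking by mouse changed no call of Prdm16 between fractions. cDC2-like cells had no such value, since Prdm16 was under the low-count filter in the mice with both fractions. Leaving out mice gave 8 to 30 in cluster 4. The cause of these changes was not tested.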
